A study of Mus musculus with 12 samples.

Results

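The genes described here are 40 listed genes of the cell cycle, from the D and E cyclins that start it to the mitotic apparatus that ends it, together with the CDK inhibitors that hold it back. They were chosen by name and function, and 39 of the 40 were measured, out of 18193 genes read in all. Ccnb1, which encodes cyclin B1, has no probe set that names it alone in the annotation used here and is not analysed here. The 39 fall into 8 G1 cyclins and kinases, 3 transcription factors of cycling granule cell precursors, 11 genes of DNA replication and nucleotide supply, 13 mitotic genes and 4 CDK inhibitors. RNA of primary cerebellar granular neurons (CGNs) was hybridized to 12 Affymetrix mouse expression arrays, 3 per group, from cultures described as triplicate. The groups were Ifnb-/- CGNs with rIFN-β, untreated Ifnb-/- CGNs, Ifnb+/+ CGNs with rIFN-β and untreated Ifnb+/+ CGNs. All came from B10.RIII pups, 7 days old by the labels and 6 or 7 days old by the methods, and were kept for 3 days in culture. Treatment was 100 U/ml IFN-β (rIFN-β, the recombinant protein) for 24 hr before lysis.

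The Ifnb-/- mice lack the gene for interferon-β in every cell, and the control pups were littermates, described as Ifnb+/+ by the labels and as Ifnb+/+ or Ifnb+/- by the methods. Whether the triplicate cultures came from separate litters is not stated, and every p-value below measures only how far these cultures differ. Ifnb1, the deleted gene, read between log2 values of 2.48 and 3.06 on the 12 arrays, low in both genotypes, and does not check the genotype labels. Neurod1 and Rbfox3, genes of granule neurons, read at least 11.32 and 10.10 on every array, as the labelled cell type has them.

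Granule neurons of the cerebellum arise after birth from precursors in the outer layer of the cortex, which divide under Sonic hedgehog and then leave the cycle for good. In dividing precursors, Gli1 and Mycn transmit the hedgehog signal to the D cyclins, which with CDK4 and CDK6 inactivate RB and release E2F. E2F then drives the genes of DNA replication, and a later wave of genes, read through the CHR and CCAAT motifs of their promoters, builds the mitotic spindle. CDK inhibitors of the Cip/Kip family (Cdkn1a, Cdkn1b and Cdkn1c) and of the INK4 family (Cdkn2c) oppose the kinases, and cultured CGNs are in the main postmitotic. In whole cultures, fewer dividing cells and less RNA per dividing cell cannot be told apart.

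RefSeq promoter windows (GRCm38.p6, 250 bases before to 50 after an annotated start) were at hand for 31 of the 39 measured members and were searched on both strands. CHR was taken as TTTGAA and E2F as any of TTTCCCGC, TTTCGCGC, TTTGCCGC and TTTGGCGC. The CCAAT box was taken as its 5 letters, and at 24 in Mcm7 it overlaps the E2F match by 1 base. A CHR match lay in 9 of the 11 mitotic members with a window, against 20.2% of 27025 genes with a window. An E2F match lay in 5 of 10 replication members (Mcm3, Mcm5, Mcm6, Mcm7 and Cdc6), against 2.6% of all genes. CCAAT boxes were in 10 of 11 mitotic and 8 of 10 replication members, against 41.1% of all genes. The core of an interferon-stimulated response element (GAAA, any 2 bases, GAAA) was found in 1 member, Bub1b, against 3.99% of all genes. The gamma-activated site, TTCNNNGAA, was found in 1 member, Mcm5, against 9.55% of all genes. The stretches below, all on the minus strand and written 5′ to 3′, are those of the 2 helicase genes that moved apart under rIFN-β (Mcm6 and Mcm7) and of 4 mitotic genes. Of these 4, Cdk1, Ccnb2 and Top2a were highest on the same 2 arrays, described below, and Cdc20 was highest on another. Matches are in capitals (E2F and CCAAT in both Mcm genes, CHR, CCAAT and, in Cdk1, E2F in the others, with the last capital of Mcm7 part of a CCAAT box that runs past the stretch).
Mcm6 (chr1:128359696-128359830): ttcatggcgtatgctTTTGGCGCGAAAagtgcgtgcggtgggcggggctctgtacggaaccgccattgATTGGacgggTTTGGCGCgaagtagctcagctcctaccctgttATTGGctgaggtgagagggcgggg
Mcm7 (chr5:138171859-138172058): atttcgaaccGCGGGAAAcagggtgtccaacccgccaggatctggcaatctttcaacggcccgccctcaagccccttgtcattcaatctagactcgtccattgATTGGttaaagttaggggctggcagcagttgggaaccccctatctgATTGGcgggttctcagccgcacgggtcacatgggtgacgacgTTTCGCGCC
Cdk1 (chr10:69352903-69353047): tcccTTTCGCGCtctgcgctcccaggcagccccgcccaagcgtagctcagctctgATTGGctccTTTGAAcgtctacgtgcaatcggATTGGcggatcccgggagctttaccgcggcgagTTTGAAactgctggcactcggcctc
Ccnb2 (chr9:70421535-70421654): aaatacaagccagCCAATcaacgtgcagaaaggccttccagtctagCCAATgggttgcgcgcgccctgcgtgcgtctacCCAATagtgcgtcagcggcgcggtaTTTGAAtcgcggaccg
Top2a (chr11:99024180-99024299): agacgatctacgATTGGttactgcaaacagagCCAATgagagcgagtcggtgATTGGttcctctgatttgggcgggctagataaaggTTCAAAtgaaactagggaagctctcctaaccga
Cdc20 (chr4:118437334-118437413): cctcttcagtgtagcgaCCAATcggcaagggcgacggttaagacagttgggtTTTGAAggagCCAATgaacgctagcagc

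**Figure D1:**
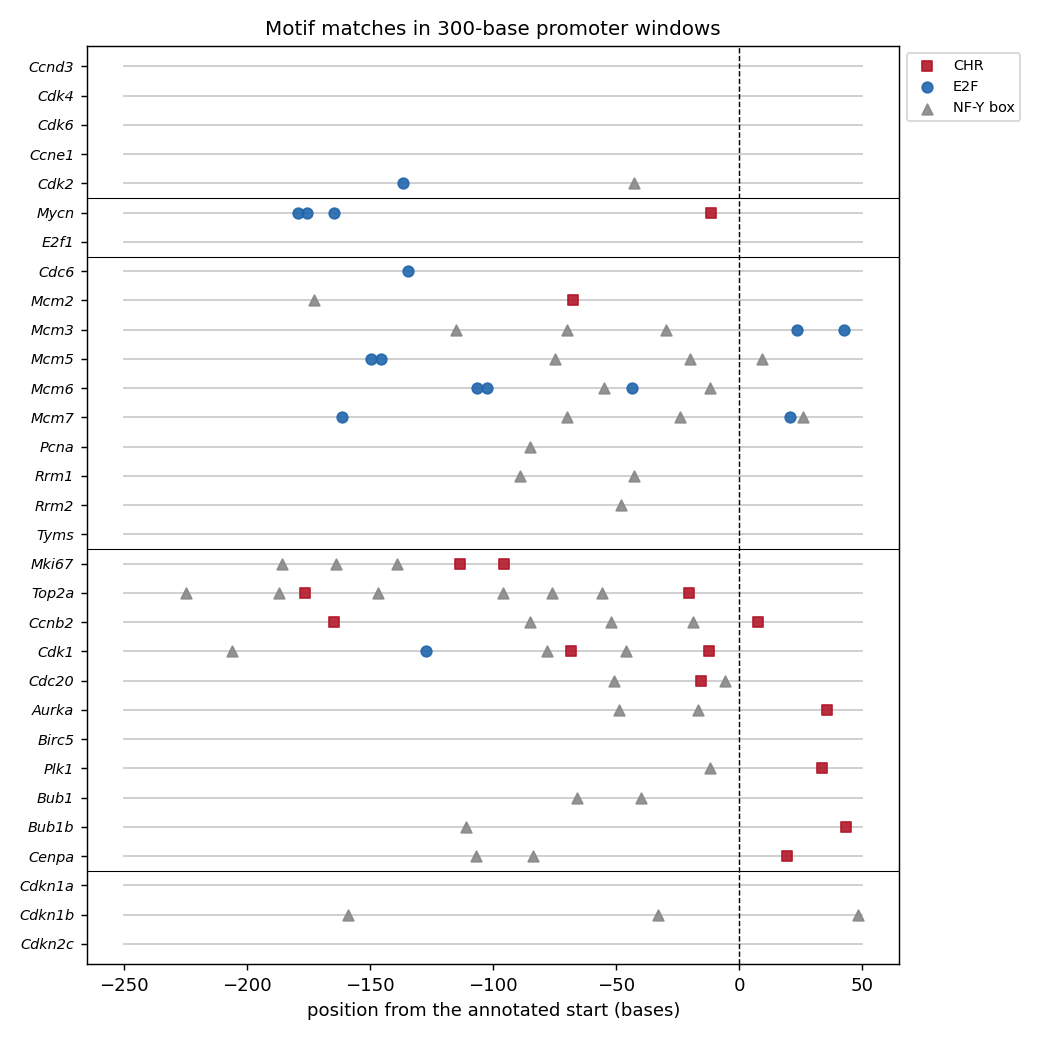
Positions of CHR (squares), E2F (circles) and CCAAT (triangles, named NF-Y box) matches on either strand, in bases from the annotated start, in the first RefSeq window of each of 31 members (rows, in the order of their roles, separated by lines). CHR matches lie in 9 of 11 mitotic members and E2F matches in 5 of 10 replication members.

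Of the 12 arrays, 3 stood out. Replicate 2 of Ifnb-/- with rIFN-β and replicate 3 of Ifnb+/+ with rIFN-β stood apart in the mitotic genes. These were the 2 highest of the 12 arrays in 18 of the 39 members and in 10 of the 13 mitotic ones, against 5.15% of all genes. Relative to each gene's mean, the mitotic members had a median of 1.61 and 1.67 on these 2 arrays on the log2 scale, and of -0.59 to 0.38 on the other 10. Among 71 further genes of spindle, kinetochore and cytokinesis, 41 were highest on the same 2 arrays. Some markers of astrocytes and Bergmann glia were high there too. Of 15 such markers 6 were highest on both arrays, and the list's mean log2 value was 9.28 and 9.02 there and 8.13 to 8.60 on the other 10. Hopx read 10.64 and 10.40 there and at most 9.14 elsewhere, Slc1a3 10.21 and 9.54 against at most 8.71, and Fabp7 12.80 and 12.50 against at most 11.37. Gfap did not follow, at 9.68 and 8.78 there and up to 10.31 elsewhere, nor did Aldh1l1 stand apart, at 9.57 and 9.24 there and up to 9.54 elsewhere. Of 11 markers of the oligodendrocyte lineage 2 (Olig1 and Olig2) were highest on both arrays, and the median deviation of that list, 0.08 and 0.20, lay within the -0.33 to 0.35 of the other 10 arrays. The part of these cell types in the mitotic values was not tested.

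The other array is replicate 3 of untreated Ifnb+/+, which lay between its fellows. It had the middle value of its group in 69.4% of genes and in 34 of the 39 members, where each of the other 11 arrays did so in 13.2% to 47.9% of genes. From the mean of replicates 1 and 2 on the linear scale it differed with an SD of 0.145 log2 units across genes. The same measure was 0.468 for replicate 1 and 0.406 for replicate 2 of that group, and 0.141 to 0.153 for the untreated Ifnb-/- arrays. Array against array, replicates 1 and 2 of untreated Ifnb+/+ differed with an SD of 0.579, and the untreated Ifnb-/- arrays with 0.161 to 0.174. Within the groups, arrays correlated across genes with r of 0.971 to 0.998. Replicate 3 of untreated Ifnb+/+ is labelled as a separate replicate, and whether it came from a separate culture cannot be told from its values. If it did not, the untreated Ifnb+/+ group holds 2 cultures and every p-value that uses it is too small. Without it, the fit called 0 members for untreated Ifnb-/- against untreated Ifnb+/+, 0 for rIFN-β in Ifnb-/-, 1 for rIFN-β in Ifnb+/+, 0 in the averaged genotype comparison and 3 in the averaged rIFN-β comparison. The share of all genes called in that fit is not given here, so these counts cannot be read as particular to the members.

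**Figure D2:**
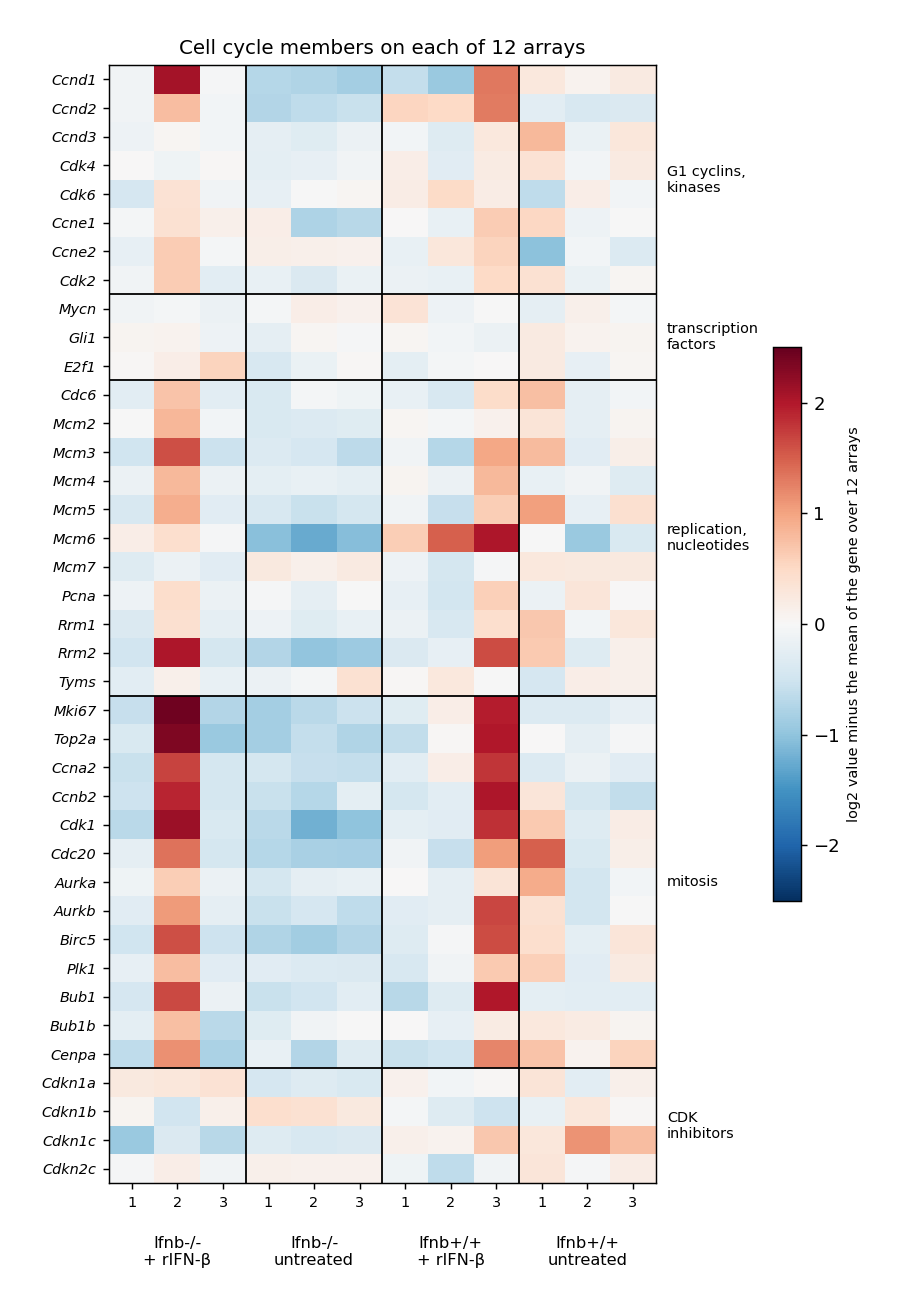
Log2 value of each measured member (rows, by role) on each of 12 arrays (columns, 3 per group) minus the mean of that gene over all arrays, from low (blue) to high (red). Replicate 2 of Ifnb-/- with rIFN-β and replicate 3 of Ifnb+/+ with rIFN-β are the red columns of the mitotic rows, with role medians of 1.61 and 1.67.

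In most mitotic genes the 2 high arrays stood far above the rest. Mki67, the proliferation antigen Ki-67, read 4.46, 7.46 and 4.30 in Ifnb-/- with rIFN-β, against 4.19, 4.35 and 4.49 in untreated Ifnb-/-. In Ifnb+/+ it read 4.73, 5.20 and 6.99 with rIFN-β, against 4.69, 4.70 and 4.83 untreated. One array of each treated group was thus high, and the other treated arrays lay at or near the untreated ones. Top2a, topoisomerase II of dividing cells, read 4.52, 7.25 and 3.97 in Ifnb-/- with rIFN-β, against 4.06, 4.31 and 4.15 in untreated Ifnb-/-. In Ifnb+/+ Top2a read 4.29, 4.93 and 6.91 with rIFN-β, against 4.92, 4.69 and 4.88 untreated. The high arrays were again those 2, and the remaining arrays overlapped. Ccna2, the S and G2 cyclin A2, read 4.35, 6.59 and 4.45 in Ifnb-/- with rIFN-β, against 4.45, 4.32 and 4.31 in untreated Ifnb-/-, and in Ifnb+/+ 4.63, 5.07 and 6.68 with rIFN-β, against 4.55, 4.76 and 4.61 untreated. A second probe set of Ccna2 did not overlap in Ifnb-/-, at 4.65, 6.54 and 4.46 with rIFN-β, against 4.18, 3.74 and 3.72 untreated. Without the 2 high arrays it differed by 0.67 in Ifnb-/- and -0.32 in Ifnb+/+, against 0.04 and 0.21 on the probe set read.

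Cdk1, the kinase that starts mitosis, read 4.29, 7.10 and 4.58 in Ifnb-/- with rIFN-β, against 4.29, 3.76 and 3.96 in untreated Ifnb-/-. In Ifnb+/+ Cdk1 read 4.72, 4.68 and 6.78 with rIFN-β, against 5.61, 4.64 and 5.14 untreated. Every untreated Ifnb-/- array was below every untreated Ifnb+/+ array. Cdc20, which directs the anaphase-promoting complex to its targets, read 5.0, 6.59 and 4.79 in Ifnb-/- with rIFN-β, against 4.53, 4.43 and 4.41 in untreated Ifnb-/-. In Ifnb+/+ Cdc20 read 5.15, 4.66 and 6.27 with rIFN-β, against 6.73, 4.86 and 5.38 untreated, and the highest of all arrays was an untreated Ifnb+/+ one. Birc5, the survivin of the chromosomal passenger complex, read 3.14, 5.25 and 3.11 in Ifnb-/- with rIFN-β, against 2.89, 2.77 and 2.91 in untreated Ifnb-/-, and in Ifnb+/+ 3.32, 3.60 and 5.26 with rIFN-β, against 4.05, 3.40 and 3.93 untreated. The histone variant of centromeres, Cenpa, read 3.55, 5.33 and 3.41 in Ifnb-/- with rIFN-β, against 4.01, 3.47 and 3.87 in untreated Ifnb-/-, and in Ifnb+/+ 3.64, 3.70 and 5.41 with rIFN-β, against 4.90, 4.29 and 4.75 untreated. In both genes the untreated genotypes did not overlap, with Ifnb-/- lower.

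Of the other mitotic members, Ccnb2 (cyclin B2), Bub1 (a kinase of the spindle checkpoint) and Aurkb (Aurora B) had their 2 highest values on the same 2 arrays, by at least 0.68 above the next. Ccnb2 read 6.35 and 6.47 there and at most 4.75 elsewhere. Plk1, the Polo kinase, exceeded the other arrays there by 0.19 and 0.07 only. Aurka (Aurora A) and Bub1b (the checkpoint protein BUBR1) did not have both arrays on top. Within groups, the median SD of the 13 mitotic genes was 1.13 in Ifnb-/- with rIFN-β, against 0.138 in untreated Ifnb-/-, and 1.08 in Ifnb+/+ with rIFN-β, against 0.347 in untreated Ifnb+/+.

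**Figure D3:**
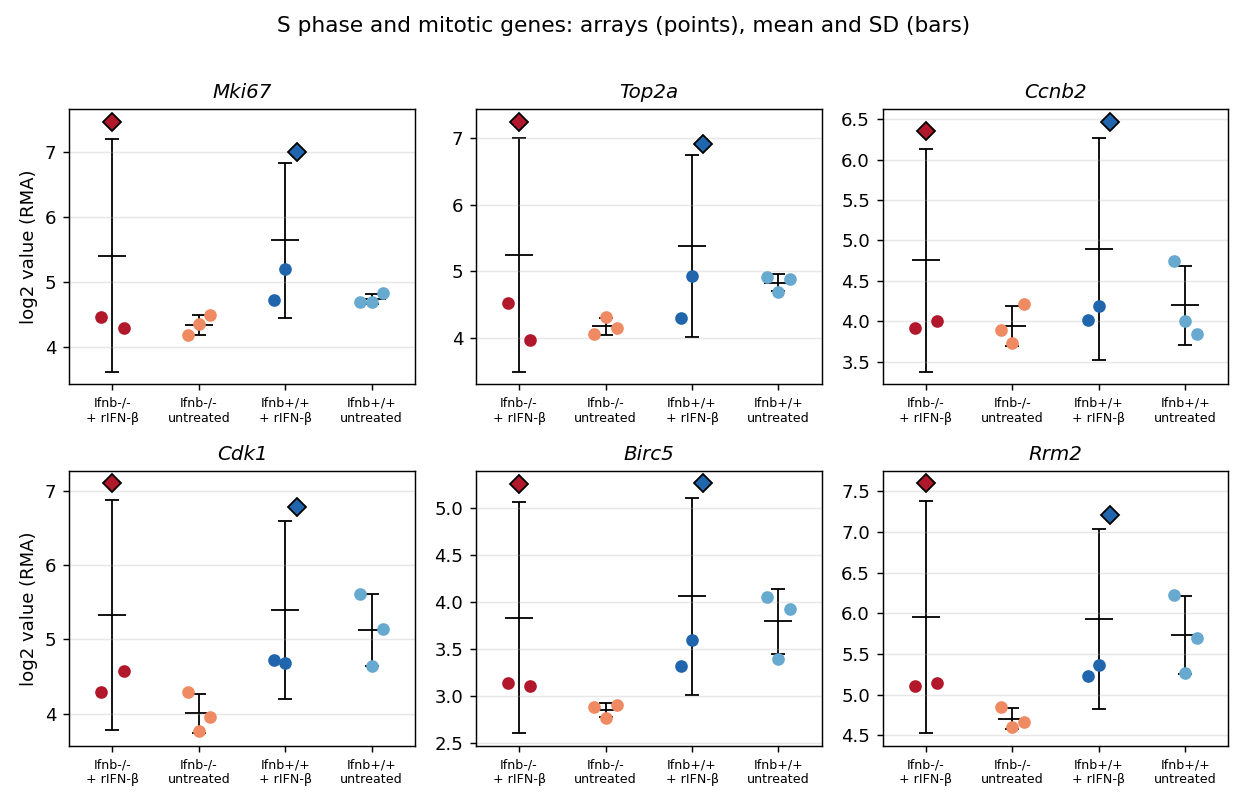
Log2 values of 6 genes of S phase and mitosis on every array (points) with the mean and SD of each group (bars, n = 3), with the 2 arrays that stood apart as diamonds. For Mki67 the diamonds are at 7.46 and 6.99 and all other arrays at 5.20 or lower.

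The untreated genotypes were compared to ask how far the lack of Ifnb alone goes with cell cycle genes. No member passed the adjusted threshold with limma (adjusted p under 0.05), where 0.115% of all genes did (21 of 18193). At an unadjusted p under 0.05, 1 member was higher and 7 were lower in Ifnb-/-, against 21.2% of all genes in either direction. Most members leaned one way: 34 of 39 had a lower mean in Ifnb-/-, with a median log2 fold change of -0.39, where 11916 of 18193 genes were lower and the median was -0.09. In 22 of 39 members every untreated Ifnb-/- array lay below every untreated Ifnb+/+ array, against 18.1% of all genes, and in 1 member, Ccne2, every one lay above, against 10.1%. By role, the median log2 fold change was -0.51 in the mitotic genes, -0.39 in replication and -0.34 in the G1 genes. The 2 arrays that stood apart are in neither group but enter the shared error of the fit. They were picked for high mitotic values, and Ccnd1 was highest there too, so leaving them out lowers the error of such genes by construction. The standard error fell from 0.58 to 0.11 in Ccnd1 and from 0.55 to 0.16 in Birc5, at the same fold changes. Without these arrays 81 of 18193 genes were called. Among them were 3 members, all lower in Ifnb-/-: Birc5 at -0.94 (adjusted p = 0.043, limma), Ccnd1 at -0.96 (adjusted p = 0.0168) and Cdkn1c at -1.09 (adjusted p = 0.0366). Some marker lists of other cell types leaned as well. Of 17 microglial markers 16 had a lower mean in untreated Ifnb-/- (median -0.41, 1 called) and of 13 endothelial and pericyte markers 12 did (median -0.24, none called), while 11 of 13 markers of maturing granule neurons had a higher mean (median 0.18, none called). Of 15 astrocyte and Bergmann glia markers, 7 had a higher and 8 a lower mean. Of 11 oligodendrocyte markers 7 were lower (median -0.23) and of 15 fibroblast markers 10 were (median -0.05). None of these was called. The part of these cell types in the members' values was not tested.

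With all arrays, Cdkn1c, the Cip/Kip inhibitor p57, had the smallest adjusted p of the members between the untreated genotypes. It read 7.41, 7.33 and 7.38 in untreated Ifnb-/- and 8.02, 8.86 and 8.52 in untreated Ifnb+/+. The genotypes did not overlap, and the log2 fold change was -1.09 ± 0.22 (SE, adjusted p = 0.0847, limma, and 0.0366 without the 2 arrays that stood apart). The same held with rIFN-β, where Cdkn1c read 6.82, 7.37 and 7.04 in Ifnb-/- and 7.87, 7.83 and 8.42 in Ifnb+/+, with a log2 fold change of -0.96 ± 0.22 (adjusted p = 0.248, limma). Averaged over both treatments, a comparison added after the data were seen, Cdkn1c fell by 1.03 on the log2 scale in Ifnb-/- (SE 0.15, adjusted p = 0.0217, limma), with all 6 Ifnb-/- arrays below all 6 Ifnb+/+ arrays. It was the only member called there, against 0.231% of all genes. The call was lost without replicate 3 of untreated Ifnb+/+, without replicate 1 or 3 of Ifnb-/- with rIFN-β, or without any 1 of the untreated Ifnb-/- arrays (adjusted p up to 0.0966), while the log2 fold change stayed between -1.14 and -0.93 under every alternative. Cdkn1c lies at chr7:143458339-143461059 (GRCm38) and is read from its only probe set. The gene is imprinted, and its level is known to differ between cell types.

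In the comparison of the genotypes with rIFN-β, no member passed the adjusted threshold, where 0.0605% of all genes did. At an unadjusted p under 0.05, 3 members were lower in Ifnb-/-, against 4.94% of all genes in either direction. The median log2 fold change of the members was -0.02, against 0.03 over all genes. The 3 members were Cdkn1c, Mcm6 and Ccnd2. All 17 measured interferon-response genes had a lower mean in Ifnb-/- in this comparison (median log2 fold change -1.35, 1 called). The part of that response in the values of these members was not tested.

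rIFN-β was then compared with no treatment in each genotype. These comparisons share the untreated arrays with the comparison of the untreated genotypes. In Ifnb-/-, 1 of the 39 members was called, Cdkn1a, against 1.67% of all genes. The members had a median log2 fold change of 0.42, where that of all genes was 0.07, and 32 of 39 had a higher mean with rIFN-β. In 15 members every treated array lay above every untreated one, against 20.3% of all genes. In Ifnb+/+, 2 members were called, Ccnd2 and Mcm6, against 3.14% of all genes. There the members' median was -0.04 and that of all genes -0.03, and the groups did not overlap in 3 members with higher treated values, against 6.67% of all genes, and in 3 with lower ones, against 9.28%. Without the 2 arrays that stood apart, the median of the members was 0.07 in Ifnb-/- and -0.24 in Ifnb+/+. That of the 13 mitotic genes was 0.08 in Ifnb-/-, against 0.80 with all arrays, and -0.25 in Ifnb+/+, against 0.26 with all arrays. Both arrays are treated ones picked for high mitotic values, so leaving them out lowers the mitotic medians by construction.

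**Figure D4:**
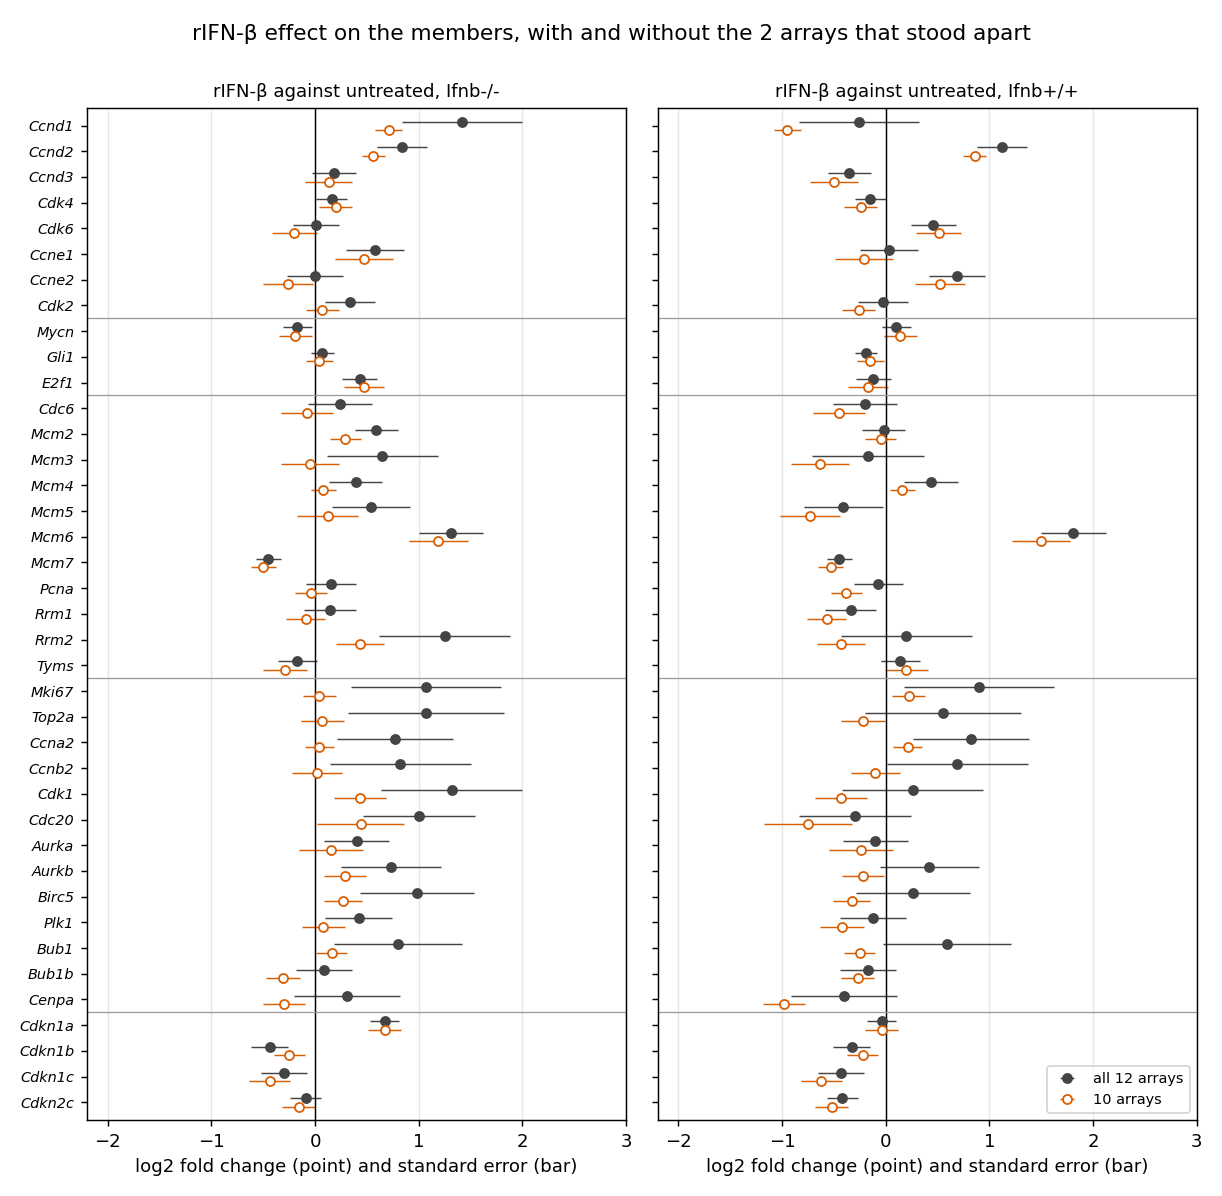
Log2 fold change of rIFN-β against no treatment (x axis, point with its standard error) of each member (rows) in Ifnb-/- (left) and Ifnb+/+ (right), from all 12 arrays (filled) and from 10 arrays without the 2 that stood apart (open). Without these arrays the medians of the mitotic genes are 0.08 and -0.25, and Mcm6 is at 1.19 and 1.50. The arrays were picked for high mitotic values, so the mitotic medians fall by construction.

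Mcm6, a subunit of the MCM2-7 helicase that opens replication origins, gave the largest log2 fold change of the members in Ifnb+/+. With rIFN-β it read 7.83, 8.08 and 7.63 in Ifnb-/- and without 6.62, 6.40 and 6.59, a log2 fold change of 1.31 ± 0.31 (SE) that missed the threshold (adjusted p = 0.0566, limma). Ifnb+/+ arrays gave 8.28, 9.15 and 9.67 with rIFN-β, against 7.65, 6.72 and 7.27 untreated, and Mcm6 rose by 1.81 ± 0.31 (adjusted p = 0.00632, limma), or 3.52-fold. Treated and untreated arrays did not overlap in either genotype. The rise in Ifnb+/+ was called with each of the 12 arrays left out in turn (adjusted p 0.000312 to 0.035) and without both arrays that stood apart (adjusted p = 0.022), but not when only the 6 Ifnb+/+ arrays were fitted or with the unpaired test of the methods after adjustment. A second probe set of Mcm6 was higher with rIFN-β by 1.86 in Ifnb-/- and 1.99 in Ifnb+/+, and its dimmest one, at 1.72 to 2.5 over all arrays, by 0.41 and 0.28. The gene lies at chr1:128331575-128359705 (GRCm38), and its promoter, printed above, holds 3 E2F matches, of which 2 overlap at -110 and -106.

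None of the other 5 subunits of the helicase was called in either genotype. Mcm7 read 8.75, 8.92 and 8.79 in Ifnb-/- with rIFN-β, against 9.31, 9.19 and 9.30 in untreated Ifnb-/-. The Ifnb+/+ arrays gave 8.95, 8.63 and 9.04 with rIFN-β, against 9.34, 9.31 and 9.31 untreated. Every treated array was below every untreated one in both genotypes, with a log2 fold change of -0.45 in each, neither called (adjusted p = 0.0909 and 0.0639, limma). Mcm7 was described after its values were seen, and its 3 further probe sets were lower with rIFN-β in both genotypes as well. Mcm5 read 5.95, 7.26 and 6.06 in Ifnb-/- with rIFN-β, against 5.95, 5.78 and 5.90 in untreated Ifnb-/-, and in Ifnb+/+ 6.26, 5.77 and 6.95 with rIFN-β, against 7.36, 6.13 and 6.75 untreated. Mcm2, Mcm3 and Mcm4 had log2 fold changes of 0.39 to 0.65 in Ifnb-/- and of -0.17 to 0.44 in Ifnb+/+, none called.

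Averaged over both genotypes, a comparison added after the data were seen, rIFN-β changed 3 of the 39 members, against 4.84% of all genes. Mcm6 rose by 1.56 ± 0.22 on the log2 scale (adjusted p = 0.00107, limma), Ccnd2 rose by 0.98 (adjusted p = 0.00475) and Mcm7 fell by 0.45 (adjusted p = 0.00796). All 3 were called with each array left out in turn and without both arrays that stood apart. The 6 treated arrays did not overlap the 6 untreated ones in Ccnd2 and Mcm7, while in Mcm6 a treated Ifnb-/- array at 7.63 lay below an untreated Ifnb+/+ array at 7.65.

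Ccnd2, the D cyclin of many precursor cells of the cerebellum, read 8.64, 9.49 and 8.65 in Ifnb-/- with rIFN-β, against 8.0, 8.10 and 8.16 in untreated Ifnb-/-. Ifnb+/+ cultures read 9.26, 9.23 and 10.03 with rIFN-β, against 8.47, 8.32 and 8.36 untreated. No treated array overlapped an untreated one. Ccnd2 rose by 1.12 ± 0.24 in Ifnb+/+ (adjusted p = 0.0248, limma), or 2.18-fold, and the log2 fold change in Ifnb-/- was 0.84 ± 0.24 (adjusted p = 0.113). The call in Ifnb+/+ was lost without replicate 3 of Ifnb+/+ with rIFN-β or without replicate 3 of untreated Ifnb+/+ (adjusted p up to 0.1), and when only the Ifnb+/+ arrays were fitted or the unpaired test of the methods was adjusted. Without both arrays that stood apart, Ccnd2 was called in both genotypes, with 0.56 in Ifnb-/- (adjusted p = 0.0306) and 0.86 in Ifnb+/+ (adjusted p = 0.00184). Of its 6 further probe sets, 5 were higher with rIFN-β by 0.51 to 1.19 in both genotypes. Ccnd2 lies at chr6:127125162-127152188 (GRCm38).

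Neither of the other D cyclins was called with all arrays. Ccnd1 read 6.0, 8.16 and 6.05 in Ifnb-/- with rIFN-β, against 5.36, 5.34 and 5.23 in untreated Ifnb-/-. In Ifnb+/+ it read 5.48, 5.15 and 7.41 with rIFN-β, against 6.34, 6.17 and 6.30 untreated. Its highest arrays were the 2 that stood apart. Without them, rIFN-β went with a log2 fold change of 0.71 ± 0.13 in Ifnb-/- (adjusted p = 0.0226, limma) and of -0.95 ± 0.13 in Ifnb+/+ (adjusted p = 0.00275). The difference of these effects was then 1.66 ± 0.18 (adjusted p = 0.0291, limma, 2 treated arrays in each genotype). With all arrays it was 1.68 ± 0.83 (adjusted p = 0.332, limma). As Ccnd1 was highest on the arrays left out, leaving them out lowers the error of Ccnd1 by construction. Its other 2 probe sets differed less on those 10 arrays, by 0.56 and 0.28 in Ifnb-/- and by -0.32 and -0.50 in Ifnb+/+. The untreated genotypes did not overlap in Ccnd1, with a log2 fold change of -0.96 in Ifnb-/- against Ifnb+/+ (adjusted p = 0.34, and 0.0168 without both arrays, limma). Ccnd3 read 6.72, 6.90 and 6.78 in Ifnb-/- with rIFN-β, against 6.63, 6.55 and 6.69 in untreated Ifnb-/-, and in Ifnb+/+ 6.78, 6.53 and 7.11 with rIFN-β, against 7.66, 6.68 and 7.12 untreated. Cdk4, partner of the D cyclins, read 8.29, 8.18 and 8.31 in Ifnb-/- with rIFN-β, against 8.04, 8.07 and 8.20 in untreated Ifnb-/-, and in Ifnb+/+ 8.45, 7.99 and 8.49 with rIFN-β, against 8.64, 8.22 and 8.50 untreated. Ccne2, cyclin E2, read 3.95, 4.78 and 4.09 in Ifnb-/- with rIFN-β, against 4.29, 4.28 and 4.26 in untreated Ifnb-/-, and in Ifnb+/+ 3.96, 4.44 and 4.70 with rIFN-β, against 3.13, 4.08 and 3.81 untreated. Cdk6, Ccne1 and Cdk2 had log2 fold changes of -0.56 to 0.58 between the untreated genotypes and with rIFN-β in each genotype, none called.

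Cdkn1a, the p53-induced inhibitor p21, was the brightest of the 4 inhibitors' probe sets and the member called in Ifnb-/-. It read 10.29, 10.33 and 10.40 in Ifnb-/- with rIFN-β, against 9.62, 9.71 and 9.67 in untreated Ifnb-/-. In Ifnb+/+ it read 10.14, 9.97 and 10.07 with rIFN-β, against 10.36, 9.77 and 10.17 untreated. Treated and untreated arrays were separate in Ifnb-/- and overlapped in Ifnb+/+. Cdkn1a rose by 0.67 ± 0.14 in Ifnb-/- (adjusted p = 0.0318, limma), or 1.59-fold, while the value in Ifnb+/+ was -0.04 ± 0.14 (adjusted p = 0.91). The difference between these effects was 0.71 ± 0.19 and missed the threshold (adjusted p = 0.323, limma). The call in Ifnb-/- was lost without any 1 of the 6 Ifnb-/- arrays, without replicate 3 of untreated Ifnb+/+ and without both arrays that stood apart (adjusted p up to 0.153), and with the mean of its probe sets (adjusted p = 0.27), with log2 fold changes of 0.50 to 0.70 under every alternative. A second, dimmer probe set of Cdkn1a read 8.40, 7.20 and 8.46 in Ifnb-/- with rIFN-β, against 7.60, 7.71 and 7.78 in untreated Ifnb-/-, so that replicate 2 lay below the untreated arrays there. Cdkn1a lies at chr17:29090979-29100722 (GRCm38), and its promoter window held none of the motifs searched.

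Cdkn1b, the inhibitor p27 of resting granule neurons, read 8.42, 7.87 and 8.48 in Ifnb-/- with rIFN-β, against 8.78, 8.73 and 8.60 in untreated Ifnb-/-. In Ifnb+/+ it read 8.31, 8.03 and 7.84 with rIFN-β, against 8.16, 8.64 and 8.38 untreated. Its lowest values were on the 2 arrays where the mitotic genes were highest, and no comparison was called. The log2 fold change with rIFN-β was -0.44 in Ifnb-/- and -0.33 in Ifnb+/+ on this probe set. A second, dimmer probe set of Cdkn1b read 5.74, 3.71 and 5.67 in Ifnb-/- with rIFN-β, against 7.36, 7.05 and 5.70 in untreated Ifnb-/-, and in Ifnb+/+ 6.88, 3.96 and 3.33 with rIFN-β, against 6.91, 6.84 and 7.39 untreated. There the difference was -1.67 in Ifnb-/- and -2.32 in Ifnb+/+, and the treated arrays spread widely. Cdkn2c, the INK4 inhibitor p18, read 6.41, 6.60 and 6.34 in Ifnb-/- with rIFN-β, against 6.56, 6.53 and 6.53 in untreated Ifnb-/-, and in Ifnb+/+ 6.33, 5.79 and 6.35 with rIFN-β, against 6.73, 6.40 and 6.61 untreated. On the probe sets read for them, the 4 inhibitors had log2 fold changes of -0.44 to 0.67 with rIFN-β in Ifnb-/- and of -0.43 to -0.04 in Ifnb+/+.

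**Figure D5:**
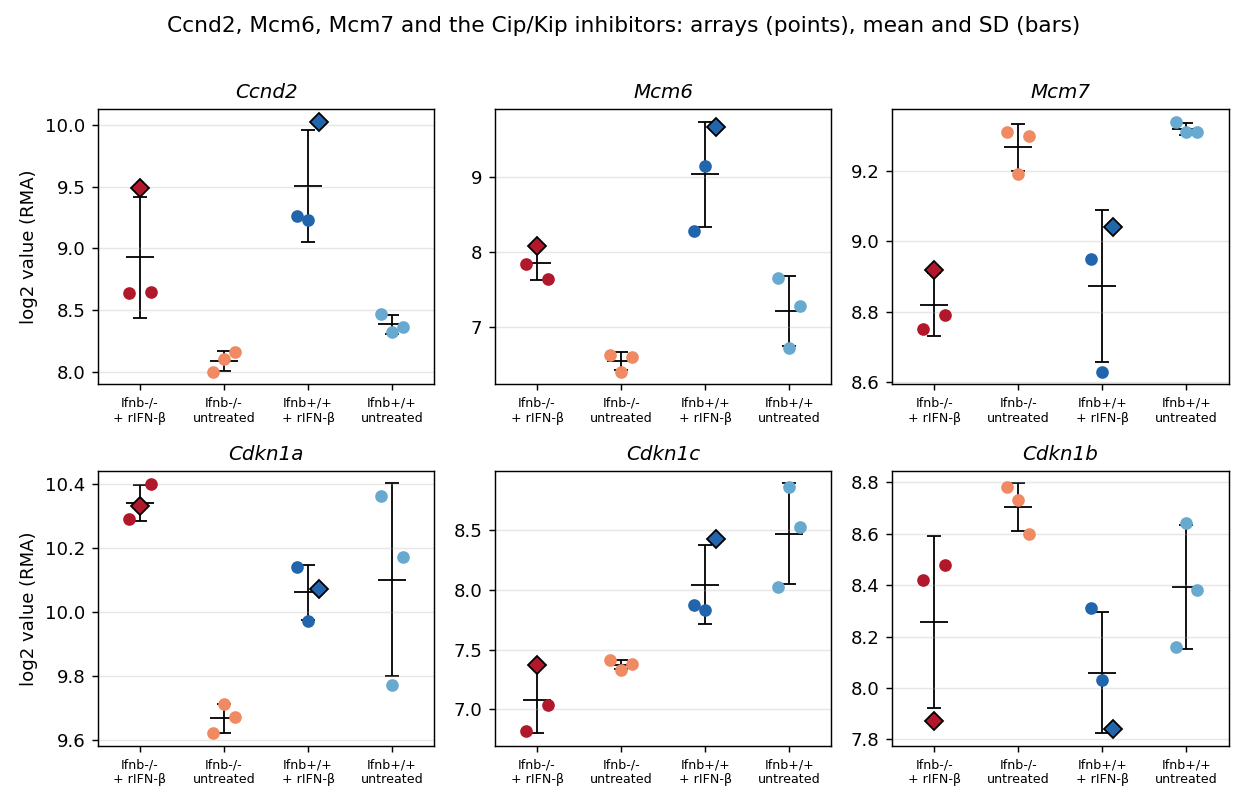
Log2 values of Ccnd2, Mcm6, Mcm7, Cdkn1a, Cdkn1c and Cdkn1b on every array (points) with the mean and SD of each group (bars, n = 3), the 2 arrays that stood apart drawn as diamonds and each panel on its own scale. Ccnd2 and Mcm7 separate all treated from all untreated arrays, and Cdkn1c all Ifnb-/- from all Ifnb+/+ arrays.

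None of the 3 transcription factors of cycling precursors was called in any comparison. Mycn read 7.82, 7.85 and 7.75 in Ifnb-/- with rIFN-β, against 7.86, 8.07 and 8.01 in untreated Ifnb-/-, and in Ifnb+/+ 8.24, 7.78 and 7.89 with rIFN-β, against 7.68, 8.04 and 7.86 untreated. Gli1, the readout of hedgehog signaling, was dim throughout, at 2.66, 2.68 and 2.46 in Ifnb-/- with rIFN-β, against 2.38, 2.64 and 2.56 in untreated Ifnb-/-, and in Ifnb+/+ 2.64, 2.52 and 2.45 with rIFN-β, against 2.83, 2.68 and 2.66 untreated. Neither was raised on the 2 arrays with high mitotic values. E2f1 read 5.43, 5.57 and 5.96 in Ifnb-/- with rIFN-β, against 5.0, 5.24 and 5.43 in untreated Ifnb-/-, and in Ifnb+/+ 5.15, 5.34 and 5.40 with rIFN-β, against 5.62, 5.19 and 5.44 untreated.

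Of the remaining replication genes, Rrm1, the large subunit of ribonucleotide reductase, read 7.08, 7.84 and 7.22 in Ifnb-/- with rIFN-β, against 7.31, 7.14 and 7.25 in untreated Ifnb-/-. Ifnb+/+ cultures read 7.29, 7.04 and 7.85 with rIFN-β, against 8.11, 7.37 and 7.72 untreated. The untreated genotypes did not overlap in Rrm1, with Ifnb-/- lower. Rrm2, the small subunit made in S phase, read 7.60 and 7.21 on the 2 arrays that stood apart and 4.60 to 6.23 on the others. Pcna, the sliding clamp of DNA polymerase, read 9.24 to 10.01 on those others and 10.15 and 10.30 on the 2. Cdc6, which loads the helicase at origins, and Tyms, thymidylate synthase, were dim, at 3.69 or lower on every array, and neither was called.

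The difference of the rIFN-β effect between genotypes was called in no member, where 0.022% of all genes were called. At an unadjusted p under 0.05, 2 members had a higher effect in Ifnb-/-, Cdkn1a and E2f1, against 15.3% of all genes in either direction. The median difference was 0.33 in the members and 0.11 over all genes.

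Further genes of the same pathways were read from lists. Of 40 measured replication origin and fork factors, 1 rose with rIFN-β in Ifnb+/+, Mcm10, which helps start the replication fork, by 0.79 ± 0.17 (adjusted p = 0.0274, limma), and none was called in Ifnb-/-. Without the 2 arrays that stood apart Mcm10 was at 0.62 (adjusted p = 0.0471). Of 71 genes of spindle, kinetochore and cytokinesis, Cenpm rose in Ifnb-/- by 0.85 and Pttg1, the securin that holds sister chromatids together, rose in Ifnb+/+ by 2.02 ± 0.48 (adjusted p = 0.0428). Pttg1 read 7.76, 9.39 and 7.88 in Ifnb-/- with rIFN-β, against 6.93, 6.45 and 6.69 in untreated Ifnb-/-, and in Ifnb+/+ 8.42, 9.47 and 10.42 with rIFN-β, against 7.71, 7.06 and 7.49 untreated. The treated arrays were higher throughout in each genotype. Without the 2 arrays that stood apart Pttg1 was at 1.53 in Ifnb+/+ (adjusted p = 0.0219, limma), and Cenpm was no longer called, at 0.68 in Ifnb-/- (adjusted p = 0.066). The spindle list had medians of 0.35 in Ifnb-/- and 0.17 in Ifnb+/+, against 0.07 and -0.03 over all genes. Without those 2 arrays, on which 41 of its 71 genes were highest, its medians were 0.08 and -0.02, against 0.09 and -0.02 over all genes. Both are treated arrays, so genes that were high on them fall by construction when they are left out. Of 20 RB and E2F genes, 1 fell in Ifnb-/-, Tfdp2, a dimerization partner of E2F, by 0.76 (adjusted p = 0.0443, and 0.0688 without those 2 arrays, limma), and none was called in Ifnb+/+.

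Of 20 p53 genes and targets, 3 were called in Ifnb-/- and 2 in Ifnb+/+. Gadd45g, a stress gene that binds Cdk1, rose by 1.80 in Ifnb-/- and 2.09 in Ifnb+/+ (adjusted p = 0.0389 and 0.0115, limma), Sesn1 fell by 0.71 and 0.79, and Aen rose in Ifnb-/- by 0.79. All 5 calls were also made without the 2 arrays that stood apart, with Gadd45g at 1.47 in Ifnb-/- and 1.54 in Ifnb+/+. Of 23 genes of the hedgehog pathway and granule precursors, 1 was called in each genotype, Shh itself. Shh read 5.77, 5.94 and 5.62 in Ifnb-/- with rIFN-β, against 4.85, 4.26 and 4.90 in untreated Ifnb-/-. In Ifnb+/+ Shh read 6.24, 6.29 and 6.47 with rIFN-β, against 4.24, 4.46 and 4.20 untreated, and it rose by 1.11 ± 0.17 in Ifnb-/- and by 2.03 ± 0.17 in Ifnb+/+ (adjusted p = 0.00612 and 2.98e-05, limma). Without those 2 arrays Shh was at 1.03 and 1.96 (adjusted p = 0.0237 and 0.000263). Its receptor Ptch1 read 8.76 to 9.38 and the precursor factor Atoh1 3.53 to 4.19 over all 12 arrays, and neither was called. None of 8 other CDK inhibitors and RB-family brakes was called in either genotype. Averaged over both genotypes, where 4.84% of all genes were called, Btg1 of these brakes was called lower with rIFN-β. Its log2 fold change was -0.43 (adjusted p = 0.0142, limma). Bbc3 of the p53 list was called there too, at -0.66 (adjusted p = 0.0131, limma).

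Markers of microglia had a lower mean with the treatment in 15 of 17 cases in Ifnb+/+ (median log2 fold change -0.69). In Ifnb-/- 10 were lower and 7 higher (median -0.36). Of 17 microglial markers, 8 were called lower with rIFN-β in Ifnb+/+, against 3.14% of all genes called in either direction, and 1 in Ifnb-/-, against 1.67%. The mean log2 value of that list was 6.11 to 6.26 in Ifnb-/- with rIFN-β, against 6.47 to 6.62 in untreated Ifnb-/-, and 6.05 to 6.47 in Ifnb+/+ with rIFN-β, against 6.85 to 7.09 in untreated Ifnb+/+. Without the 2 arrays that stood apart, 5 fell in Ifnb+/+ and 3 in Ifnb-/-. With all arrays, none of the astrocyte, oligodendrocyte and fibroblast markers was called with rIFN-β in either genotype. Of the endothelial and pericyte markers 1 was, lower in Ifnb+/+. In the comparison averaged over both genotypes, the oligodendrocyte marker Mbp was called, with a log2 fold change of -0.44 (adjusted p = 0.0268, limma). Without the 2 arrays that stood apart, 1 oligodendrocyte marker was called in Ifnb-/-, lower with rIFN-β. Of 17 interferon-response genes, 12 rose in Ifnb-/- and 16 in Ifnb+/+. The list had a mean log2 value of 7.64, 8.14 and 7.60 in Ifnb-/- with rIFN-β and of 8.28, 9.28 and 9.92 in Ifnb+/+ with rIFN-β. It was 3.98 to 4.76 on the untreated arrays. The 2 arrays that stood apart had the highest value of their groups, and the part of this in the members' values was not tested. The part of microglial RNA in the members' values was not tested.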

How the data were processed

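Log2 values of 45037 probe sets were deposited by the authors, who had quantile-normalized the arrays and summarized the probes with RMA in Arraystar. Nothing was normalized again. Probe sets were named through the platform annotation (34945 name 1 gene, 932 several and 9160 none), and a gene was read from the brightest probe set naming it alone (18193 genes). By their names, the probe sets of Cdk4, Ccne1, Mcm2, Mcm3, Mcm5, Mcm7, Rrm2 and Aurkb may share probes with other transcripts. An array has no read depth, and 3 arrays per group limit the precision. The fit was limma 3.58.1 (R 4.3.3) with 4 group means over 12 arrays (8 residual degrees of freedom) and eBayes, and p-values were adjusted by Benjamini-Hochberg over the 18193 genes. Called means an adjusted p under 0.05. The fit was checked on simulated arrays, drawn independently and with the same spread of a gene in every group. That check does not cover unequal spreads between groups, arrays that stand apart or arrays that depend on each other. Alternatives were averaging the probe sets of a gene, genes with a mean of at least 5, arrays centred on their median, only the compared groups, array weights, a replicate block, the unpaired two-tailed test of the methods, and each array left out. Leaving out 2 arrays together and the averaged comparisons were added after the data were seen. Values on every array were given for members called in a comparison, the 4 inhibitors, the 3 D cyclins and, per role, the 3 members with the smallest p between the untreated genotypes and 1 for each rIFN-β comparison. Mki67, Top2a and Mcm7 were added after their values were seen. Of the lists, at most 4 called genes per comparison were named, and Hopx, Slc1a3, Fabp7, Gfap, Aldh1l1, Neurod1, Rbfox3, Ptch1 and Atoh1 were given as markers. The members and lists were chosen with earlier results of these data known. Sequences are from RefSeq (GRCm38.p6).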

Additional observations from a re-analysis of the deposited data

How the results depend on the processing

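Counts of members called changed with several settings, while no called log2 fold change of a named member turned its sign. Without both arrays that stood apart, 3 members were called between untreated Ifnb-/- and Ifnb+/+ (Birc5, Ccnd1 and Cdkn1c, all lower in Ifnb-/-), 2 with rIFN-β in Ifnb-/- (Ccnd1 and Ccnd2), 4 with rIFN-β in Ifnb+/+ (Ccnd1 and Cenpa lower, Ccnd2 and Mcm6 higher) and 1 in the difference of the rIFN-β effects. Over all 18193 genes, the counts were 81, 310, 396 and 3 in the same order. Leaving out arrays that were picked for high mitotic values lowers the error of the genes that were high on them. As both arrays were treated, it lowers the rIFN-β fold changes of these genes as well. Array weights gave 18 for the untreated genotypes, 6 for rIFN-β in each genotype, 2 between the treated genotypes, 2 in the difference, 4 in the averaged genotype and 7 in the averaged rIFN-β comparison. They gave replicate 3 of untreated Ifnb+/+, which lies between its fellows, a weight of 7.24 and all other arrays at most 2.28. The share of all genes called is not given here for the weights or for the settings below. The counts of members under them can therefore not be read as particular to the members. With only the compared groups the counts were 1, 3 in Ifnb-/- and 0 in Ifnb+/+. Genes with a mean of at least 5 gave 2 in Ifnb-/-. The test of the methods gave 2 in Ifnb-/- and 0 in Ifnb+/+ after adjustment, and without it 11 between the untreated genotypes, 4 in Ifnb-/- and 3 between the treated genotypes. With each array left out, the count ran from 0 to 4 between the untreated genotypes, 0 to 2 in Ifnb-/-, 1 to 4 in Ifnb+/+, 0 to 1 between the treated genotypes, 0 to 1 in the difference, 0 to 2 in the averaged genotype and 3 to 4 in the averaged rIFN-β comparison. The 4 between the untreated genotypes and the 4 in Ifnb+/+ came without replicate 2 of untreated Ifnb+/+, the 1 in Ifnb+/+ without replicate 3 of either Ifnb+/+ group, and the 0 in Ifnb-/- without any 1 Ifnb-/- array or replicate 3 of untreated Ifnb+/+. The causes were not tested. Each replicate number occurs once in every group. Arrays of the same number had deviations correlating between -0.501 and 0.432 (median 0.067). Those of different numbers correlated between -0.585 and 0.566 (median -0.045). The ranges overlap, and whether the numbers pair the cultures cannot be told from them. A replicate block gave 1 member in Ifnb-/-, 2 in Ifnb+/+ and 0 in the other planned comparisons, as without the block. The members' medians moved by less than the spread between arrays of a group (SD 0.37) under all alternatives. That SD is widened by the 2 arrays that stood apart and is a loose measure of stability. The members' median deviation was 0.72 and 0.61 on them, against -0.34 to 0.30 on the other 10. Without both, the members' median fell to 0.07 for rIFN-β in Ifnb-/- (0.42 with all arrays) and to -0.05 for the averaged rIFN-β comparison (0.23 with all arrays). Genes near the lower end of the scale, such as Cdc6, Tyms and Gli1, could not show small changes.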
